A study of Mus with 30 samples.

Results

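The cardiac transcriptomes of mice given ethoxysanguinarine during an angiotensin II (Ang II) infusion were compared with those of mice given gastrodin during the same infusion. The members were all samples carrying the group label AngII+ETH (5 mice) or AngII+GAS (5 mice), which makes 10 of the 30 samples of the series. The Ang II group (5 mice) and the Control group (5 mice) served as references. All mice were C57BL/6, a common inbred strain, and the mice of the study were male young adults. Control mice received saline as both infusion and treatment for 28 days. Ang II mice received Ang II at 500 ng/kg/min for 28 days with saline as treatment. The ETH mice received the same infusion with ethoxysanguinarine at 5 mg/kg/day, and the GAS mice the same infusion with gastrodin at 5 mg/kg/day, so both drugs were compared at 1 matched dose and time. Gastrodin was given by gavage, and no source used here states how ethoxysanguinarine was given. The RNA came from the left part of the heart, which holds muscle cells, fibroblasts, vessels and blood together, so that fewer cells of a type and less RNA per cell cannot be told apart.

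Ang II is a peptide hormone of the renin-angiotensin system that constricts vessels and raises blood pressure, and a long infusion is a standard model of hypertensive heart enlargement and scarring. Gastrodin is the main phenolic glycoside of the orchid Gastrodia elata and is known for lowering blood pressure. Ethoxysanguinarine is a benzophenanthridine alkaloid obtained from sanguinarine, a compound of poppy-family plants. The compounds belong to different chemical classes and are not analogs of one another. The comparison asks which cardiac transcripts set the hearts under these drugs apart, and which drug group stands away from Ang II alone and from saline.

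The files give 1 value per transcript and mouse. The values were read as FPKM, a level scaled for transcript length and library size, although the unit is not stated in the sources used here. A transcript carries either an Ensembl mouse transcript identifier or a name of the form MERGE.4024.2. How the MERGE models were made is not given, and models with the same first number are treated here as models of 1 locus. No table used here pairs these names with genes (0 of the identifiers matched), so transcripts are given by identifier, no function is stated for them, and the heart and cell type markers could not be checked. Summed over all transcripts, the ETH mice held 562189 to 652870 FPKM and the GAS mice 578476 to 649783 FPKM. Sequencing depth is unknown. In ETH mouse 5125 the most abundant transcript was at 57445 FPKM, against 102239 to 132832 in the other 4 ETH mice. Its part in the results below was not tested beyond leaving this mouse out, which gave 6 calls at an adjusted p under 0.05 by limma in place of the 18 given next.

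Few transcripts separated the drugs. Of 18478 transcripts listed for all 10 mice and at 1 FPKM or more in at least 5 of them, 18 differed at an adjusted p under 0.05 by limma. There were 8 higher in the ETH group (0.0433% of those tested) and 10 lower (0.0541%). Of the 8 higher transcripts 7 were MERGE models, and of the 10 lower ones 8 were Ensembl transcripts. At an unadjusted p under 0.05 limma gave 1016 transcripts, where 923.9 would be expected with no difference at all. A difference of at least 2-fold with an unadjusted p under 0.05, the thresholds the study states, was met by 282 transcripts (136 higher and 146 lower, 1.53% of those tested). The median absolute difference over all transcripts tested was 0.15 on the log2(FPKM + 1) scale, with a median standard error of 0.218. A missed threshold at this error does not show that the drugs acted alike on the other 18460 transcripts.

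**Figure D1:**
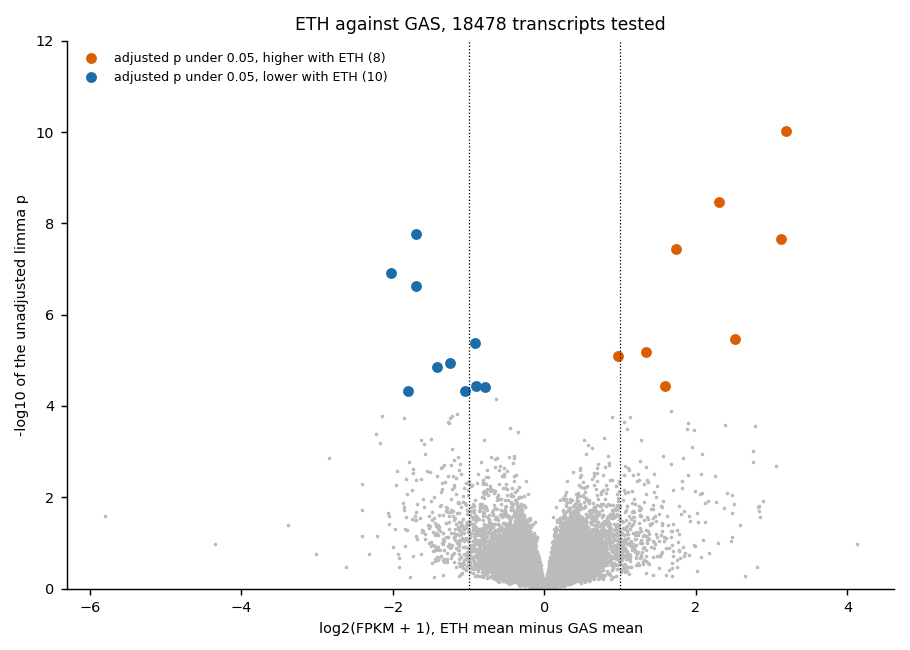
Difference between the ETH and GAS group means on the log2(FPKM + 1) scale (x axis) against −log10 of the unadjusted limma p (y axis) for each of 18478 transcripts, with dotted lines at 2-fold. The 8 orange and 10 blue points pass an adjusted p of 0.05, and 14 of these 18 lie beyond a dotted line.

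All 18 had ETH and GAS values that did not overlap, which held for 207 (1.12%) of the transcripts tested. Non-overlap is a property that the choice by p favours and is given as a description. In the exact permutation test over the 252 assignments of the 10 mice, two-sided, each of the 18 gave p = 0.00794, the smallest value this design allows. Groups that do not overlap always give this value, so it is no further support. For 8 of the 18, every mouse of one drug group and no mouse of the other reached 1 FPKM, so they entered the test only through the group in which they were high and had to differ. Such a pattern held for 24 of all transcripts tested. The ETH-high ones among the 8 were ENSMUST00000111729, MERGE.4024.2, MERGE.12622.3, MERGE.24057.2 and MERGE.16894.2. The GAS-high ones were ENSMUST00000020507, ENSMUST00000176322 and ENSMUST00000151361. Their limma p, given below, is a description and no support for a difference. In a fit of all 6 groups, which takes the spread over all 30 mice, 1 of the 18 calls remained (MERGE.11353.12, adjusted p = 6.85e-04 by limma).

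In 5 of the 8 transcripts higher in the ETH group, the GAS mean was under 0.5 FPKM. ENSMUST00000111729 was at 6.63, 7.50, 8.13, 8.84 and 9.64 FPKM in the ETH mice and listed at 0 in all 5 GAS mice. It was also listed at 0 in all 5 Control mice, while the Ang II mice were at 0, 0, 3.27, 4.49 and 6.89 FPKM. The ETH mice were thus above every GAS and Control mouse, while of the Ang II mice 2 were at the GAS level, 2 lay between and 1 lay above the lowest ETH mouse. The log2(FPKM + 1) difference between ETH and GAS was 3.18 ± 0.110 SE (limma, adjusted p = 1.77e-06), the smallest p of the comparison. No ratio is given against a group listed at 0.

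MERGE.4024.2 was at 2.92, 4.02, 4.05, 4.45 and 4.54 FPKM in the ETH mice and listed at 0 in all 5 GAS mice, a log2 difference of 2.31 ± 0.116 SE (limma, adjusted p = 3.15e-05). In the references it was either listed at 0 or at 3.26 FPKM or above. The Control mice were at 0, 0, 0, 3.26 and 3.46 FPKM and the Ang II mice at 0, 0, 0, 0 and 3.72 FPKM. MERGE.12622.3 was at 5.32, 6.60, 6.78, 9.19 and 12.5 FPKM in the ETH mice and at 0, 0, 0, 0 and 0.0142 FPKM in the GAS mice, a log2 difference of 3.13 ± 0.192 SE (limma, adjusted p = 1.03e-04). No GAS mouse came near the lowest ETH mouse, whereas 4 of the 5 Ang II mice, at 0.0143, 4.31, 5.87, 8.86 and 9.38 FPKM in all, lay at 4.31 or above. MERGE.24057.2 was at 2.15, 2.18, 2.52, 2.73 and 2.99 FPKM under ethoxysanguinarine against 0, 0, 0.0123, 0.0560 and 0.201 FPKM under gastrodin, a log2 difference of 1.74 ± 0.112 SE (limma, adjusted p = 1.38e-04).

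The other 4 ETH-high transcripts were all measured in the GAS group, at lower levels. MERGE.13364.3 was at 11.2, 12.7, 12.8, 13.4 and 26.9 FPKM in the ETH mice and 1.04, 1.47, 1.59, 1.60 and 3.48 FPKM in the GAS mice (log2 difference 2.52 ± 0.268 SE, limma adjusted p = 0.0079). ETH mouse 5164 stood above the other ETH mice in this transcript, and the groups were apart without it. MERGE.13674.8, the most abundant of the 8, was at 24.2, 25.4, 27.1, 27.9 and 29.0 FPKM against 7.07, 8.11, 10.3, 12.2 and 13.0 FPKM (log2 difference 1.34 ± 0.154 SE, limma adjusted p = 0.0121). MERGE.3113.1 was at 2.06, 2.43, 2.55, 2.80 and 2.95 FPKM against 0.633, 0.706, 0.791, 0.885 and 1.06 FPKM (log2 difference 0.97 ± 0.114 SE, limma adjusted p = 0.0134). The ETH mice kept within a narrow band in both of these. MERGE.16894.2 was at 1.57, 2.70, 2.99, 3.51 and 3.62 FPKM against 0.00832, 0.0740, 0.144, 0.350 and 0.934 FPKM (log2 difference 1.59 ± 0.222 SE, limma adjusted p = 0.0441), with ETH mouse 5125 the lowest of its group.

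Among the 10 transcripts lower in the ETH group, 2 were nearly or wholly listed at 0 there. ENSMUST00000020507 was at 0, 0, 0, 0 and 0.0295 FPKM in the ETH mice and at 1.82, 2.20, 2.31, 2.40 and 2.65 FPKM in the GAS mice (log2 difference −1.70 ± 0.101 SE, limma adjusted p = 1.03e-04). ENSMUST00000176322 was listed at 0 in all 5 ETH mice and was at 1.79, 1.87, 2.18, 2.21 and 3.38 FPKM in the GAS mice (log2 difference −1.70 ± 0.134 SE, limma adjusted p = 6.30e-04). For both, each reference group held mice at 0 and mice above 1 FPKM. ENSMUST00000151361 was at 0.128, 0.298, 0.310, 0.493 and 0.727 FPKM under ethoxysanguinarine and at 1.56, 2.76, 2.84, 3.28 and 3.31 FPKM under gastrodin (log2 difference −1.42 ± 0.177 SE, limma adjusted p = 0.0198), where GAS mouse 5112 was the lowest of its group.

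The other 7 ETH-low transcripts had a mean of at least 0.690 FPKM in the ETH group. ENSMUST00000093772 had the largest difference on the log2 scale among the 10 lower transcripts, at 2.27, 2.37, 2.50, 3.29 and 4.51 FPKM in the ETH mice and 13.2, 14.6, 14.9, 15.8 and 16.1 FPKM in the GAS mice (log2 difference −2.03 ± 0.149 SE, limma adjusted p = 3.87e-04). ENSMUST00000155671 was at 3.48, 4.58, 4.70, 4.85 and 5.12 FPKM against 8.92, 9.26, 9.27, 9.45 and 10.3 FPKM (log2 difference −0.92 ± 0.0998 SE, limma adjusted p = 0.00841). Both references lay mostly between the drugs in this transcript, with means of 7.08 ± 1.43 FPKM under Ang II alone and 7.70 ± 0.962 FPKM under saline (SD, n = 5 each). ENSMUST00000031341 was at 7.77, 8.71, 9.05, 10.6 and 11.1 FPKM under ethoxysanguinarine and at 16.8, 22.5, 25.1, 25.7 and 29.5 FPKM under gastrodin (log2 difference −1.24 ± 0.151 SE, limma adjusted p = 0.0173). ENSMUST00000030623 was at 3.67, 4.12, 4.81, 4.84 and 4.87 FPKM against 6.79, 9.36, 9.63, 10.4 and 10.4 FPKM (log2 difference −0.91 ± 0.127 SE, limma adjusted p = 0.0441). The ETH level was below every GAS mouse in both.

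MERGE.15536.7 was at 6.97, 7.12, 7.19, 7.22 and 8.74 FPKM in the ETH mice and 10.5, 14.0, 14.2, 14.3 and 15.5 FPKM in the GAS mice (log2 difference −0.79 ± 0.111 SE, limma adjusted p = 0.0441), the smallest difference of the 18. MERGE.11353.12 was at 0.332, 0.472, 0.674, 0.932 and 1.04 FPKM against 3.46, 3.62, 3.64, 5.46 and 9.95 FPKM (log2 difference −1.81 ± 0.260 SE, limma adjusted p = 0.0486), and GAS mouse 5120 carried the highest value. ENSMUST00000018880 was at 2.88, 5.04, 5.04, 5.76 and 5.77 FPKM against 10.3, 10.6, 10.96, 11.3 and 11.9 FPKM (log2 difference −1.05 ± 0.152 SE, limma adjusted p = 0.0486). These last 3 calls sat close to the threshold.

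**Figure D2:**
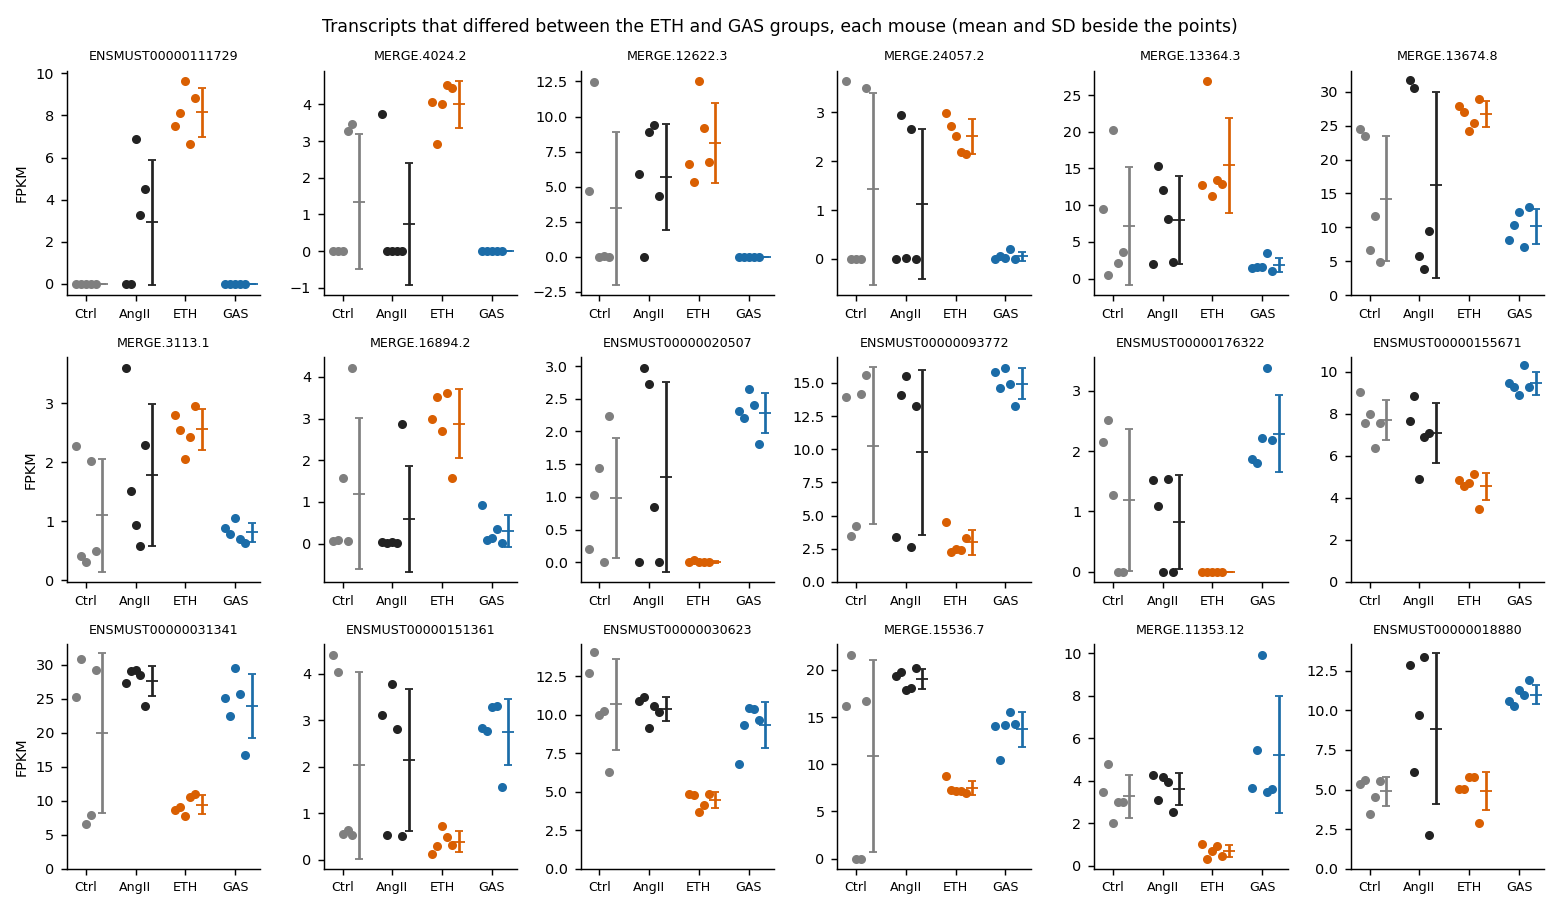
FPKM (y axis, linear) of the 18 transcripts in each mouse of the Control (Ctrl), Ang II, ETH and GAS groups (x axis), with the group mean and SD (n = 5) beside the points. In every panel the 5 orange ETH points and the 5 blue GAS points do not overlap, and in most panels the grey Control and black Ang II points are spread over both levels.

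Just outside the threshold was ENSMUST00000003219, at 2.48, 2.62, 2.77, 3.17 and 3.32 FPKM in the ETH mice and 4.50, 4.86, 5.04, 5.37 and 5.42 FPKM in the GAS mice (log2 difference −0.64, limma adjusted p = 0.0677). The next were MERGE.23847.3, with means of 4.39 FPKM under ethoxysanguinarine and 0.688 FPKM under gastrodin (limma adjusted p = 0.122), and ENSMUST00000118878, with means of 0.213 and 1.65 FPKM (limma adjusted p = 0.126). A further 10 transcripts combined a large difference with groups that did not overlap and a higher mean of at least 1 FPKM, and none of them passed the adjusted test. The ETH-higher ones were MERGE.5968.4, at 14.4 ± 5.33 FPKM against 2.31 ± 2.36 FPKM (SD, n = 5 each), ENSMUST00000151701, MERGE.10145.5, ENSMUST00000134689 and MERGE.7091.6. The ETH-lower ones were ENSMUST00000163336, at 0.791 ± 0.168 FPKM against 8.85 ± 5.10 FPKM (SD, n = 5 each), ENSMUST00000143466, MERGE.16114.1, ENSMUST00000162528 and MERGE.19990.6. Their limma adjusted p ranged from 0.126 to 0.809.

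The differences between the drugs in MERGE models did not always hold for the locus. Of the 9 called MERGE models, 5 had another model of the same locus listed for both drugs. The 3 models of locus MERGE.4024 summed to 4.45 ± 0.699 FPKM in the ETH group and 3.49 ± 1.27 FPKM in the GAS group (SD, n = 5 each), a log2 difference of 0.33 (exact permutation p = 0.190, two-sided). In the ETH mice most of this sum was MERGE.4024.2, and in the GAS mice it was MERGE.4024.3, at 2.25 ± 2.07 FPKM, or MERGE.4024.1, at 1.25 ± 1.45 FPKM (SD, n = 5 each). The level of the locus was thus not shown to differ beyond the spread between mice, while the model to which it was assigned did.

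**Figure D3:**
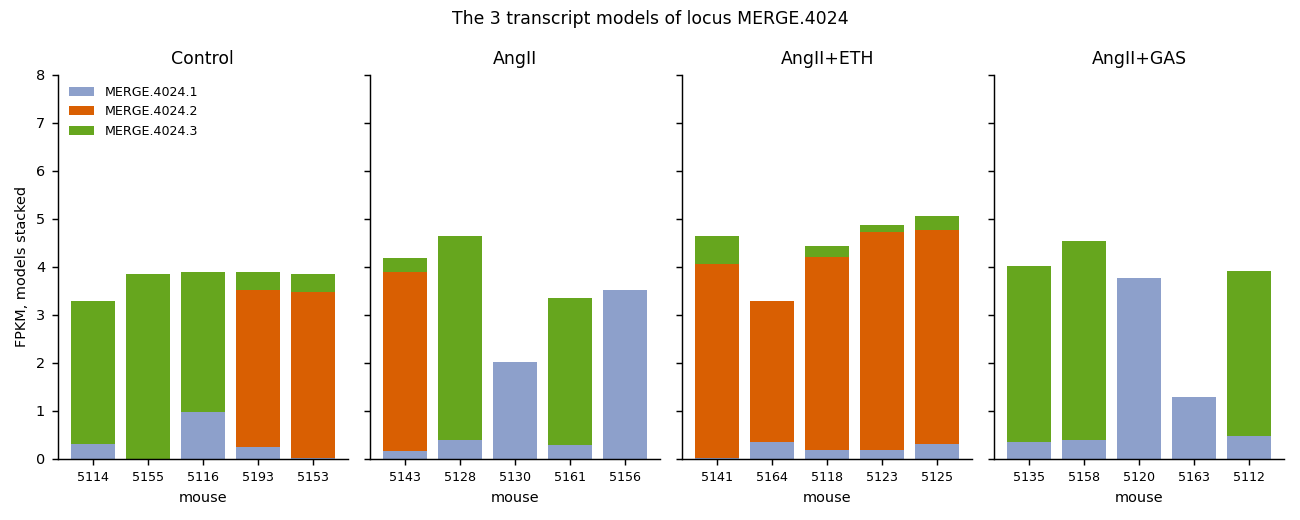
FPKM (y axis) of the 3 models of locus MERGE.4024, stacked, for each mouse (x axis) of the Control, Ang II, ETH and GAS groups. MERGE.4024.2 (orange) fills most of each ETH bar and is listed at 0 in each GAS bar, and 2 Control mice and 1 Ang II mouse carry it as well.

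At locus MERGE.11353 the direction of the sum was opposite to that of the called model. MERGE.11353.12 was lower under ethoxysanguinarine, but the 4 models of the locus listed for both drugs summed to 16.0 ± 5.40 FPKM in the ETH group and 11.2 ± 5.44 FPKM in the GAS group (SD, n = 5 each; exact permutation p = 0.190, two-sided). In the ETH group the largest part of it was MERGE.11353.9, at 13.1 ± 8.79 FPKM against 4.86 ± 7.34 FPKM in the GAS group (SD, n = 5 each), where MERGE.11353.12 was slightly higher at 5.22 ± 2.77 FPKM. At 3 further loci the sum kept the direction of the called model. These were MERGE.12622 (67.4 ± 3.16 FPKM in the ETH group, 42.6 ± 22.4 FPKM in the GAS group), MERGE.3113 (3.19 ± 0.278 and 1.04 ± 0.155 FPKM) and MERGE.15536 (26.7 ± 1.35 and 36.0 ± 3.50 FPKM), all SD with n = 5, and each with an exact permutation p of 0.00794. Each sum includes the model that was chosen for its difference, so it is no independent support. The other 4 called models, MERGE.24057.2, MERGE.13364.3, MERGE.13674.8 and MERGE.16894.2, were the only listed models of their loci.

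The ETH group was more often the one farther from the references. Its mean lay farther from the Ang II mean than the GAS mean did in 14 of the 18 transcripts on the log2(FPKM + 1) scale, against 53.04% of all transcripts tested. It lay farther from the Control mean in 15 of the 18, against 51.9% of all. The reference mean fell between the drug means in 15 of the 18 for Ang II (5337 of 18418 over all tested) and in 15 for Control (5149 of 18418). A choice of transcripts in which the drugs differ widely favours such a place. For Ang II the listing favours it too, since the 8 of the 18 with a drug mean under 0.5 FPKM needed an Ang II mean of 0.5 or more. For the 282 transcripts at 2-fold with an unadjusted p under 0.05, ETH was farther from Ang II in 155 (55.0%) and from Control in 164 (58.2%). These counts describe the chosen transcripts and carry no test.

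**Figure D4:**
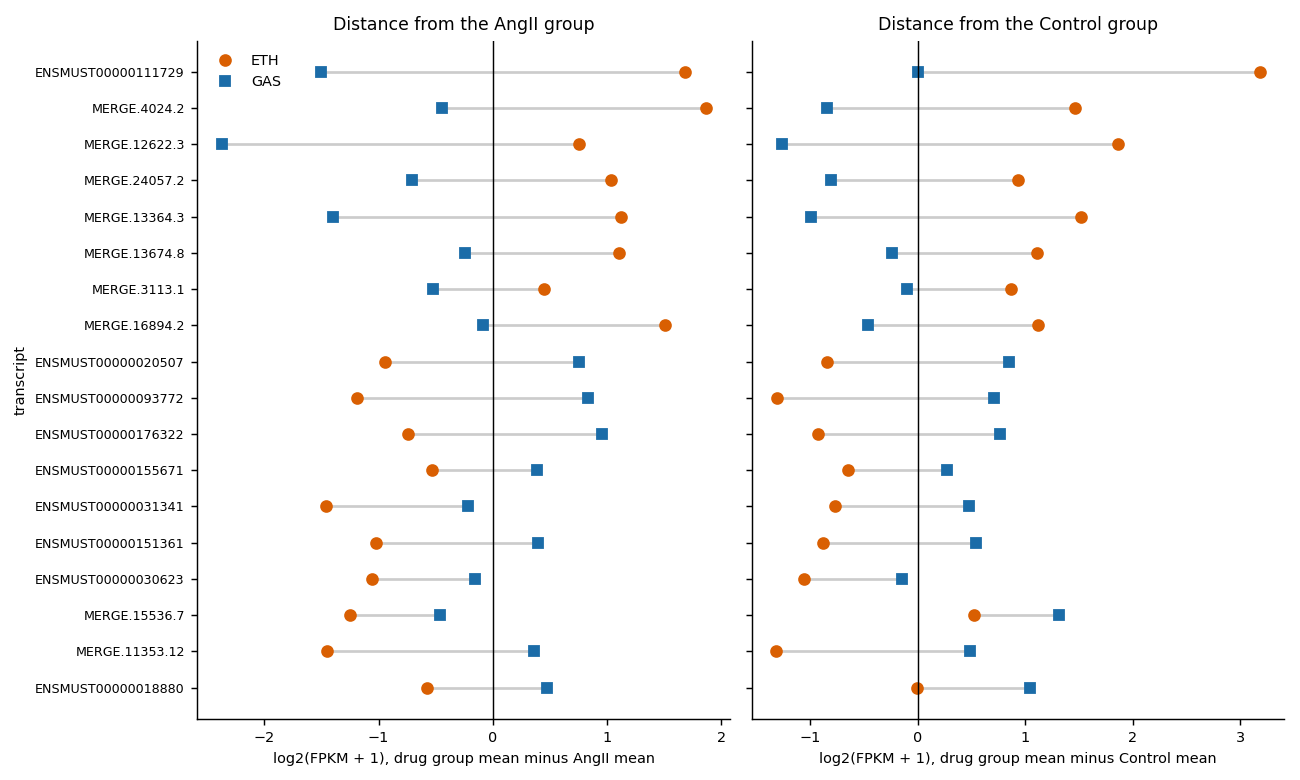
Difference of the ETH mean (orange circles) and the GAS mean (blue squares) from the Ang II mean (left panel) and from the Control mean (right panel), on the log2(FPKM + 1) scale (x axis), for each of the 18 transcripts (y axis). ETH is farther from 0 in 14 transcripts on the left and in 15 on the right.

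Each drug was then tested against each reference. These comparisons share the reference mice with each other and the drug mice with the choice of the 18, so they are given side by side. Against Ang II, 4 of the 15 transcripts that passed the filter differed in the ETH group at an adjusted p under 0.05 (limma, 0.132% of all transcripts tested in that comparison), and none of the 12 that passed it did in the GAS group (limma, 0.022%), where 4 were at an unadjusted p under 0.05. Against Control, 2 of 15 differed in the ETH group (limma, 0.225% of all) and 1 of 12 in the GAS group (limma, 0.0703%). With a mouse left out, MERGE.4024.2 differed between ETH and Ang II without Ang II mouse 5143 (limma, adjusted p = 2.11e-04) and MERGE.16894.2 without Ang II mouse 5156 (limma, adjusted p = 0.00566). In both omissions no remaining Ang II mouse reached 1 FPKM. These transcripts then entered through the ETH mice alone, had to differ and are given as a description. The count of transcripts without overlap was even for Ang II, but the gaps were not. The ETH mice were apart from all 5 Ang II mice in 4 transcripts (2.24% of all) and the GAS mice in 4 (1.43%), with 1 in common. For GAS some gaps were very narrow. They ran from 0.01419 FPKM (GAS) to 0.01425 FPKM (Ang II) in MERGE.12622.3 and from 8.871 FPKM (Ang II) to 8.917 FPKM (GAS) in ENSMUST00000155671. No ETH gap was this narrow, the smallest in FPKM running from 1.04 (ETH) to 2.55 (Ang II) in MERGE.11353.12. The ETH mice were apart from all 5 Control mice in 4 (2.55% of all) and the GAS mice in 1 (1.94%).

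The 4 transcripts in which ETH departed from Ang II were all lower under ethoxysanguinarine. ENSMUST00000031341 was at 23.9, 27.4, 28.5, 29.1 and 29.3 FPKM in the Ang II mice, all above the ETH mice and within the range of the GAS mice. Its log2 difference from Ang II was −1.46 in the ETH group (limma, adjusted p = 4.21e-04) and −0.22 in the GAS group (limma, adjusted p = 0.835). Control did not share this level uniformly, since its mice were at 6.61, 7.97, 25.2, 29.3 and 30.8 FPKM, 2 of them below the highest ETH mouse.

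ENSMUST00000030623 was at 9.11, 10.2, 10.6, 10.9 and 11.1 FPKM in the Ang II mice and at 6.29, 9.999, 10.3, 12.7 and 14.0 FPKM in the Control mice. All 10 lay above the highest ETH mouse, and the GAS mice overlapped with both references. The log2 difference from Ang II was −1.06 in the ETH group (limma, adjusted p = 0.00313) and −0.15 in the GAS group (limma, adjusted p = 0.856). From Control it was −1.06 in the ETH group (limma, adjusted p = 0.0652). With each mouse left out, this adjusted p ranged from 0.0201 to 0.160. It was under 0.05 only without Control mouse 5153, the lowest of its group.

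MERGE.15536.7 separated 3 groups in steps. The Ang II mice were at 17.9, 18.1, 19.4, 19.8 and 20.2 FPKM, above all GAS mice, which in turn were above all ETH mice. Both drug groups thus lay below Ang II, with a log2 difference of −1.25 for ETH (limma, adjusted p = 3.24e-04) and of −0.46 for GAS (limma, adjusted p = 0.627). The Control mice did not order with them, being at 0, 0, 16.2, 16.7 and 21.6 FPKM.

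MERGE.11353.12 was the only one of the 18 in which the ETH mice stood apart from all 20 mice of the other groups besides GAS. The Ang II mice were at 2.55, 3.11, 3.95, 4.19 and 4.25 FPKM and the Control mice at 2.01, 3.01, 3.02, 3.47 and 4.80 FPKM, against at most 1.04 FPKM in an ETH mouse. The log2 difference from Ang II was −1.45 in the ETH group (limma, adjusted p = 0.0122) and 0.36 in the GAS group (limma, adjusted p = 0.847). From Control the ETH difference was −1.32 (limma, adjusted p = 0.0314). With each mouse left out, the adjusted p against Ang II was at most 0.0495, whereas against Control it ranged from 0.0346 to 0.0849 and exceeded 0.05 in 9 of the 10 omissions, all but that of Control mouse 5116. In none of the 18 transcripts did the GAS mice stand apart from both references.

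The other calls against Control were 1 for each drug. ENSMUST00000111729, listed at 0 in every Control and GAS mouse, differed from Control by 3.18 in the ETH group (limma, adjusted p = 1.25e-06). It entered that test through the ETH mice alone, so it had to differ and is given as a description. ENSMUST00000018880 was the transcript in which GAS departed. Its Control mice were at 3.44, 4.53, 5.32, 5.54 and 5.59 FPKM, within the range of the ETH mice and below every GAS mouse. The log2 difference from Control was 1.04 in the GAS group (limma, adjusted p = 0.0208) and −0.01 in the ETH group (limma, adjusted p = 0.994). The adjusted p for GAS ranged from 0.0129 to 0.128 with each mouse left out, and exceeded 0.05 without Control mouse 5155 or 5193 or without any 1 of the 5 GAS mice. The Ang II mice of this transcript were at 2.11, 6.11, 9.70, 12.9 and 13.4 FPKM and overlapped with both drugs.

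To ask further which drug departed, each reference was compared with the midpoint, the mean of both drug groups. The midpoint did not enter the choice of the 18, although the spread of the 10 drug mice did. The Ang II mean did enter the listing. For the 8 of the 18 with a drug mean under 0.5 FPKM, it had to be 0.5 or more. In these, Ang II could not have a mean as low as that drug group, so its place was partly fixed in advance. Ang II lay off this midpoint at an adjusted p under 0.05 in 2 of the 18 (limma, 0.014% of all transcripts tested) and at an unadjusted p under 0.05 in 6 (8.55% of all), and in all 6 of these the ETH group was the farther one. The 2 were MERGE.15536.7 (0.85 above the midpoint on the log2 scale, adjusted p = 0.00236) and ENSMUST00000031341 (0.84 above, adjusted p = 0.0335). The call for ENSMUST00000031341 was lost in 10 of the 15 omissions of a mouse, with an adjusted p of up to 0.134, and without any of these mice: Ang II 5143, 5128, 5130 and 5161, ETH 5141, 5164 and 5118, and GAS 5135, 5158 and 5163. MERGE.4024.2 passed the adjusted threshold without Ang II mouse 5143, the 1 Ang II mouse that carried it (adjusted p = 0.00168). Without that mouse the transcript entered through the ETH mice alone, so Ang II had to lie off the midpoint, and this is given as a description. Control lay off the midpoint at an adjusted p under 0.05 in 1 of the 18 (limma, 0.339% of all), ENSMUST00000111729, which again entered through the ETH mice alone, and at an unadjusted p under 0.05 in 3 (9.66% of all). In 2 of these 3 ETH was farther and in 1, ENSMUST00000018880, GAS was. With a mouse left out, ENSMUST00000030623 passed the adjusted threshold for Control only without Control mouse 5153 (limma, adjusted p = 0.0321, and up to 0.307 otherwise). ENSMUST00000018880 passed it only without ETH mouse 5125 (limma, adjusted p = 0.0309, and up to 0.270 otherwise). ENSMUST00000111729 was no longer tested without any 1 of the ETH mice. In the fit of all 6 groups no midpoint call remained for either reference, with limma adjusted p of 0.755 for MERGE.15536.7, 0.560 for ENSMUST00000031341 and 0.306 for ENSMUST00000111729, and 3 transcripts at an unadjusted p under 0.05 for each reference.

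The mice given neither ethoxysanguinarine nor gastrodin did not form a level of their own for most of the 18. For each transcript, the gap between the ETH and the GAS values was taken, and every mouse of the other 4 groups was placed on the ETH side, on the GAS side or in the gap. Of 360 such values, 109 (30.3%) were on the ETH side, 163 (45.3%) on the GAS side and 88 (24.4%) in the gap. The Ang II mice gave 24, 47 and 19 of their 90 values, and the Control mice 27, 45 and 18 of 90. In 16 of the 18 transcripts, Control or Ang II mice lay on both sides. The exceptions were ENSMUST00000030623 and MERGE.11353.12, where none lay on the ETH side. The other transcripts without overlap between the drugs were not placed in this way. The split is thus not shown to be particular to the 18.

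**Figure D5:**
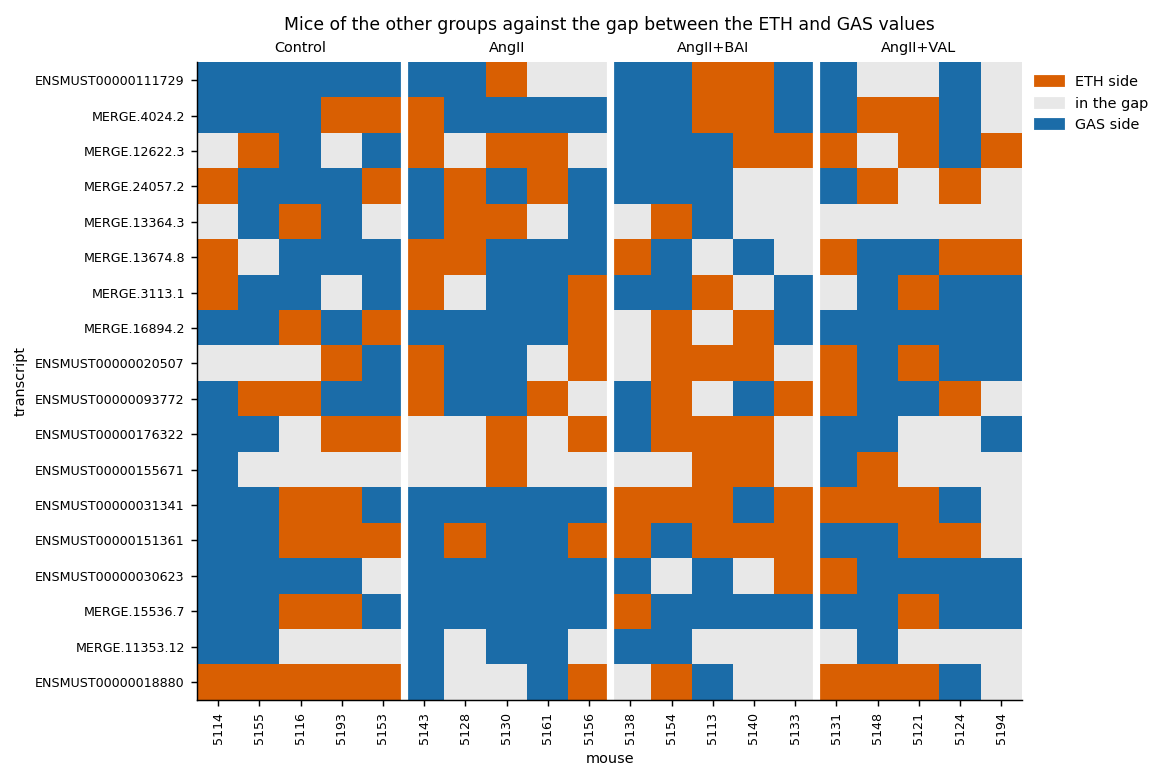
Place of each mouse of the other 4 groups (x axis, by mouse number) relative to the gap between the ETH and GAS values of each of the 18 transcripts (y axis). Orange marks the ETH side (109 of 360 values), blue the GAS side (163) and light grey the gap (88), and most rows hold both colours within a single group.

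The spread within groups was set beside this. The median SD of the 18 transcripts on the log2(FPKM + 1) scale was 0.188 in the ETH group and 0.170 in the GAS group, which the choice by p favours. In the reference mice, whose values did not enter that p, it was 0.886 in the Ang II group and 0.943 in the Control group. For all transcripts tested between the drugs it was 0.321 and 0.343. The Ang II values did enter the listing. The 8 of the 18 with a drug mean under 0.5 FPKM needed an Ang II mean of 0.5 or more to be listed for that drug. How far this raised the Ang II SD was not tested. The SD was above the median of all tested in 13 of the 18 in the Ang II group and in 14 of the 18 in the Control group. The 5 at or below it in the Ang II group were ENSMUST00000155671 and the 4 transcripts called between ETH and Ang II, among which MERGE.15536.7 had the lowest, at 0.0749. The mean level of the 18 was ordinary, with a median of 4.06 FPKM over the 10 drug mice against 2.95 FPKM for all tested. The highest of the 18 was at 18.4 FPKM.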

How the data were processed

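Cardiac RNA of 30 mice was sequenced after removal of ribosomal RNA. The labels, which set the groups, name 5 mice in each, although the paper states 6. The authors deposited 1 table per mouse with 1 value per transcript, read here as FPKM from its values. The aligner, quantifier and annotation are not given in the sources used here. Build mm10 and limma appear in the submitters' processing notes, and DESeq in the paper. Each deposited drug table lists exactly the transcripts with a mean FPKM of 0.5 or more in the Ang II group or in that drug group.

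Values were taken to log2(FPKM + 1). The ETH and GAS mice were fitted in limma 3.58.1 (R 4.3.3) with a trend of variance on mean, two-sided, for transcripts listed in all 10 tables and at 1 or more in at least 5, with Benjamini-Hochberg adjustment over all tested. Each reference was compared with each drug group in the same way, and with the midpoint of both in a fit of 15 mice. Fold changes are on the log2(FPKM + 1) scale and understate changes of low transcripts. Single values were compared by exact permutation tests. The labels name separate mice and tie no mouse to another. The test was tried on simulated data. Plots came from matplotlib 3.10.9 (Python 3.11.15).

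Named were all transcripts at an adjusted p under 0.05, then the 5 higher and 5 lower with the largest difference among those at an unadjusted p under 0.05, at least 2-fold, not overlapping, with a higher mean of 1 or more. Transcripts just outside the threshold were added. Members, lists and tests were chosen with earlier results of these data known. The pathway and cell type lists could not be applied, as the reference table used (assembly GRCm38.p6) matched 0 identifiers. No sequence is shown, as no genome was used. Alternatives were other normalizations, filters, pseudocounts, fits, features and thresholds, and each mouse left out. The baicalin and valsartan groups entered only as other mice and in the fit of all 6 groups.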

Additional observations from a re-analysis of the deposited data

Results flagged for a closer look

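Of 45 groups of 5 mice looked at for a single mouse far from the other 4 (Dixon's criterion, which chance meets in about 1 of 20 groups), 8 had one. In the ETH group, mouse 5164 was lowest in MERGE.4024.2 (2.923 FPKM, the others 4.02 to 4.54) and highest in MERGE.13364.3 (26.93 FPKM, the others 11.2 to 13.4). Mouse 5141 was highest in MERGE.15536.7 (8.741 FPKM, the others 6.97 to 7.22), and mouse 5125 was lowest in ENSMUST00000018880 (2.879 FPKM, the others 5.04 to 5.77). In the GAS group, mouse 5112 was lowest in ENSMUST00000151361 (1.555 FPKM, the others 2.76 to 3.31), mouse 5135 in ENSMUST00000030623 (6.793 FPKM, the others 9.36 to 10.4) and mouse 5158 in MERGE.15536.7 (10.46 FPKM, the others 14.0 to 15.5). None of these values entered the range of the other drug group. Over all transcripts, the correlation of Ang II mouse 5156 to its group mates averaged 0.7996, where the other 4 Ang II mice averaged 0.811 to 0.814.

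Transcripts listed for only one of the drugs stayed outside the comparison. There were 2025 listed for ETH and not for GAS, of which 284 had a mean of 1 FPKM or more, and 1651 listed for GAS and not for ETH, of which 227 had. A mean under 0.5 FPKM in both the Ang II group and the drug group leaves a transcript out of that drug's table, so an unlisted transcript is low in the mean and need not be at 0. In 12.9% of the ETH-only and 16.7% of the GAS-only transcripts, a single mouse gave over 80% of the group's sum. The ETH-only transcript with the highest mean, MERGE.24059.46 at 89.9 FPKM, was at 449.5 FPKM in mouse 5164 and at most 0.00343 FPKM in the other ETH mice. The GAS-only transcript with the highest mean, ENSMUST00000220401 at 68.3 FPKM, was at 340.3 FPKM in mouse 5163 and at most 0.438 FPKM in the other GAS mice. Every mouse of the group reached 1 FPKM in 1 ETH-only transcript, ENSMUST00000029277 (1.22 ± 0.150 FPKM, SD, n = 5), and in 1 GAS-only transcript, MERGE.13047.2 (2.17 ± 0.504 FPKM, SD, n = 5).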

How the results depend on the processing

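The 18 calls between ETH and GAS became 8 with a filter at a mean of 5 FPKM (6114 transcripts tested), 7 among Ensembl transcripts alone and 1 in the fit of all 6 groups. They became 10 when both group means had to reach 0.5, an alternative chosen after seeing the data. With a mouse left out the count ranged from 6 to 20, of which 5 to 11 were among the 18. The count was 9, 8, 11 and 6 without ETH mouse 5141, 5164, 5118 and 5125, and 11 and 10 without GAS mouse 5163 and 5112. Without an ETH mouse 13 of the 18 could still be tested and without a GAS mouse 15, because the filter asks for 5 mice at 1 FPKM. The 282 transcripts at 2-fold with an unadjusted p under 0.05 became 105 with the filter at a mean of 5, 466 with a pseudocount of 0.1, 182 among Ensembl transcripts and 574 at 1.5-fold. Of the 18, 16 calls were kept under quantile normalization, 14 under median scaling (7 higher and 7 lower), 14 without the trend, 13 without a filter, 15 with a pseudocount of 0.1 and 17 with array weights. For 9 of the 18 the fit of all 6 groups alone ended the call, and for the other 9 between 4 and 16 alternatives did. Among the former, ENSMUST00000111729, ENSMUST00000020507 and ENSMUST00000176322 could be tested in 14 alternatives. MERGE.4024.2, MERGE.12622.3 and MERGE.24057.2 could be in 13, against up to 20 for other transcripts. They were not tested without a mouse of their high group or with the filter at a mean of 5. Their count of lost calls therefore does not show steadier calls. None of the 18 ETH against GAS differences changed sign under these alternatives. As the ETH and GAS values of the 18 did not overlap, only quantile normalization and median scaling could have changed a sign. ETH stayed farther from Ang II in 11 to 15 and from Control in 10 to 16 of the 18 with a mouse left out. No paired analysis was possible because the labels carry mouse numbers that differ between all mice and no replicate numbers, and the order in which mice were numbered here pairs none. Depth is unknown, so the precision rests on 5 mice per group.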
